A study of Mus musculus with 10 samples.

Results

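The inflammatory chemokines other than Cxcl12 were taken as 10 genes, chosen by symbol: Cxcl1, Cxcl2, Cxcl5, Cxcl10, Cxcl14, Cxcl16, Ccl2, Ccl5, Ccl7 and Ccl20. They are 10 of the 55486 genes counted in a bulk RNA sequencing table of 10 libraries. Chemokines are small secreted proteins that bind G protein-coupled receptors on leukocytes and steer these cells along a gradient. Members with a Glu-Leu-Arg motif, such as Cxcl1, Cxcl2 and Cxcl5, act on Cxcr2 and attract neutrophils, whereas Ccl2 and Ccl7 act on Ccr2 and attract monocytes. In fibroblasts and epithelial cells several of these genes are induced by interleukin 1 and tumor necrosis factor through NF-kB, and others by interferons.

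Cells for the libraries had been cultured for 7 days in 5 gels of collagen and basement membrane extract and then sorted by color. Normal fibroblasts (NFs) had been isolated from mammary glands of mTmG mice aged 8 weeks, which carry a reporter that turns from red to green after Cre recombination, and sorted into CD26− and CD26+ cells by the surface protein CD26. The CD26+ NFs had received a Cre-expressing adenovirus and were green, the CD26− NFs were red, and equal numbers of each were mixed. Tumor cells came from mammary tumors of mice whose alleles include WapCre and Cdh1F/F, a model of invasive lobular carcinoma; Wap-driven Cre acts in mammary epithelium. NFs were cultured alone in gel 1. The tumor line 13-MCB-17 was alone in gel 2 and with NFs in gel 4, whereas 10-SJK-221 was alone in gel 3 and with NFs in gel 5. Each gel with NFs gave 1 library of each subset, so that NFs alone had 1 library per subset and co-cultured NFs had 2. The NFs had been pooled from several mice and grown in collagen-coated plates before, and only the CD26+ NFs met the virus, so the subset and the virus cannot be told apart. Each tumor line was a single culture, and NFs alone came from a single gel, so a peculiarity of that gel and the effect of culture without tumor cells cannot be told apart.

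Libraries held 14142334 to 18408940 counts. A level is given as CPM, the counts scaled to the library total, and 3 counts, the most that an observed 0 allows, correspond to 0.163 to 0.212 CPM. All 8 fibroblast markers examined were above this floor in every NF library, with a summed level of 23320 to 74850 CPM against 38.7 to 177.3 CPM in tumor libraries. The 8 epithelial markers summed to 4116 to 5400 CPM in tumor libraries, with 0.807 and 1.12 CPM in NFs cultured alone and between 116.9 and 321.4 CPM in co-cultured NFs. Read as tumor RNA, the last values amount to a median share over the markers of 1.94% and 3.10% of the CD26− and CD26+ library of gel 4, and of 2.09% and 5.46% of those of gel 5. Single markers gave shares of 1.66% to 9.79% and 2.5% to 12.7% in gel 4 and of 1.75% to 9.19% and 3.74% to 17.7% in gel 5, so that amounts attributed to tumor RNA below use the median and are rough. Cdh1, which is floxed in the tumor model, was among these 8 epithelial markers. The pan-leukocyte gene Ptprc and the macrophage gene Adgre1 had at most 2 counts in any library, and the 8 leukocyte markers summed to 12.2 to 68.5 CPM in NFs and to 51.1 to 303.3 CPM in tumor cells.

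Promoter sequences are shown because kB sites, bound by NF-kB, and interferon-stimulated response elements (ISREs) are known regulatory sequences of chemokine genes. RefSeq promoters on GRCm38.p6 were matched for 5 of the 10 genes (Cxcl1, Cxcl2, Cxcl10, Cxcl14 and Ccl20). The 250 bases before the start site of 4 of these follow, with capitals marking each match of the kB letters GGNNTTTCC or the ISRE core letters TTTCNNTTT on either strand.
Cxcl1 (chr5:90890995-90891244, plus strand): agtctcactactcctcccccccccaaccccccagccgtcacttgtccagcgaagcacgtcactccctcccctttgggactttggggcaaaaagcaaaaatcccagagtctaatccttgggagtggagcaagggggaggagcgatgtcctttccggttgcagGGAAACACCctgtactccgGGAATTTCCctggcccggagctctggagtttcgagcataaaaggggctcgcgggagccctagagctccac
Cxcl2 (chr5:90903649-90903898, plus strand): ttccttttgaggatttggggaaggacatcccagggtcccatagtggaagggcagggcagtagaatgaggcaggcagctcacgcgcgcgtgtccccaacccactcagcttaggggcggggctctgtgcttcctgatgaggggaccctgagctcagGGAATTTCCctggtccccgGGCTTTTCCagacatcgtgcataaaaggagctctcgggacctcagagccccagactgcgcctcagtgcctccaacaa
Cxcl10 (chr5:92348890-92349139, minus strand): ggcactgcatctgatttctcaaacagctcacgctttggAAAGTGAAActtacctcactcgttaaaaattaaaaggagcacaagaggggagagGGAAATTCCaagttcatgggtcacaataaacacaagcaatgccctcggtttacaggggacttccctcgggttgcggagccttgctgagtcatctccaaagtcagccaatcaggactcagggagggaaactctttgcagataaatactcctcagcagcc
Cxcl14 (chr13:56296552-56296801, minus strand): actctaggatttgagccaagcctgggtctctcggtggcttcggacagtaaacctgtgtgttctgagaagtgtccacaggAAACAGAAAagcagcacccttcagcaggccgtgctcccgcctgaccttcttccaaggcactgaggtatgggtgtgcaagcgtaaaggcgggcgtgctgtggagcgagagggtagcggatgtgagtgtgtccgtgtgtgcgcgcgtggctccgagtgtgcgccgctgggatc

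Cxcl1 held kB matches that began 89 and 70 bases before the start site (offsets −89 and −70), and Cxcl2 held them at −96 and −77. Cxcl10 held a kB match at −158 and Ccl20 at −80, whereas none was found in Cxcl14. Of all 32851 RefSeq promoters (250 bases before to 50 after the start), 5.82% held these kB letters. The ISRE core letters were found at −212 in Cxcl10 and at −171 in Cxcl14, and in 10.6% of all promoters. The AP-1 letters TGANTCA occurred in Cxcl10 at −74 and in 7.81% of all promoters, and the TATA letters TATAAA in none of the 5 and in 13.6% of all promoters. These matches are letters in a window, and binding was not measured. Cxcl5, Cxcl16, Ccl2, Ccl5 and Ccl7 were not matched to a promoter.

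By position on GRCm38, 4 of the 10 genes lie on chromosome 5 (Cxcl1, Cxcl2, Cxcl5 and Cxcl10), 4 on chromosome 11 (Cxcl16, Ccl2, Ccl5 and Ccl7), Cxcl14 on chromosome 13 and Ccl20 on chromosome 1. Ccl2 (chr11:82035571-82037453) and Ccl7 (chr11:82045712-82047525) are neighbors on the plus strand. Some counts are uncertain, because use of strand in counting was not stated. Exons of Cxcl16 overlap those of Zmynd15, on the other strand, over 18.3% of their length, and those of Cxcl10 overlap Art3 over 5.9%. In Cxcl2, 5.63% of words of the 54-base read length also occur in Cxcl3.

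Compared per kilobase of exon, the chemokines at the top of the order differed between the cell types. Cxcl14 was first in 5 of 6 NF libraries, at 949 CPM per kb in CD26− NFs alone. In CD26+ NFs alone Ccl7, at 264 CPM per kb, stood next to Cxcl14, at 258 CPM per kb. In tumor cells alone Cxcl5 came first (457 and 326 CPM per kb) and Cxcl1 next (421 and 293 CPM per kb). Levels of 6 of the 10 genes were above 3 counts in every library, and Cxcl14, Ccl5, Ccl7 and Ccl20 were not.

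**Figure D1:**
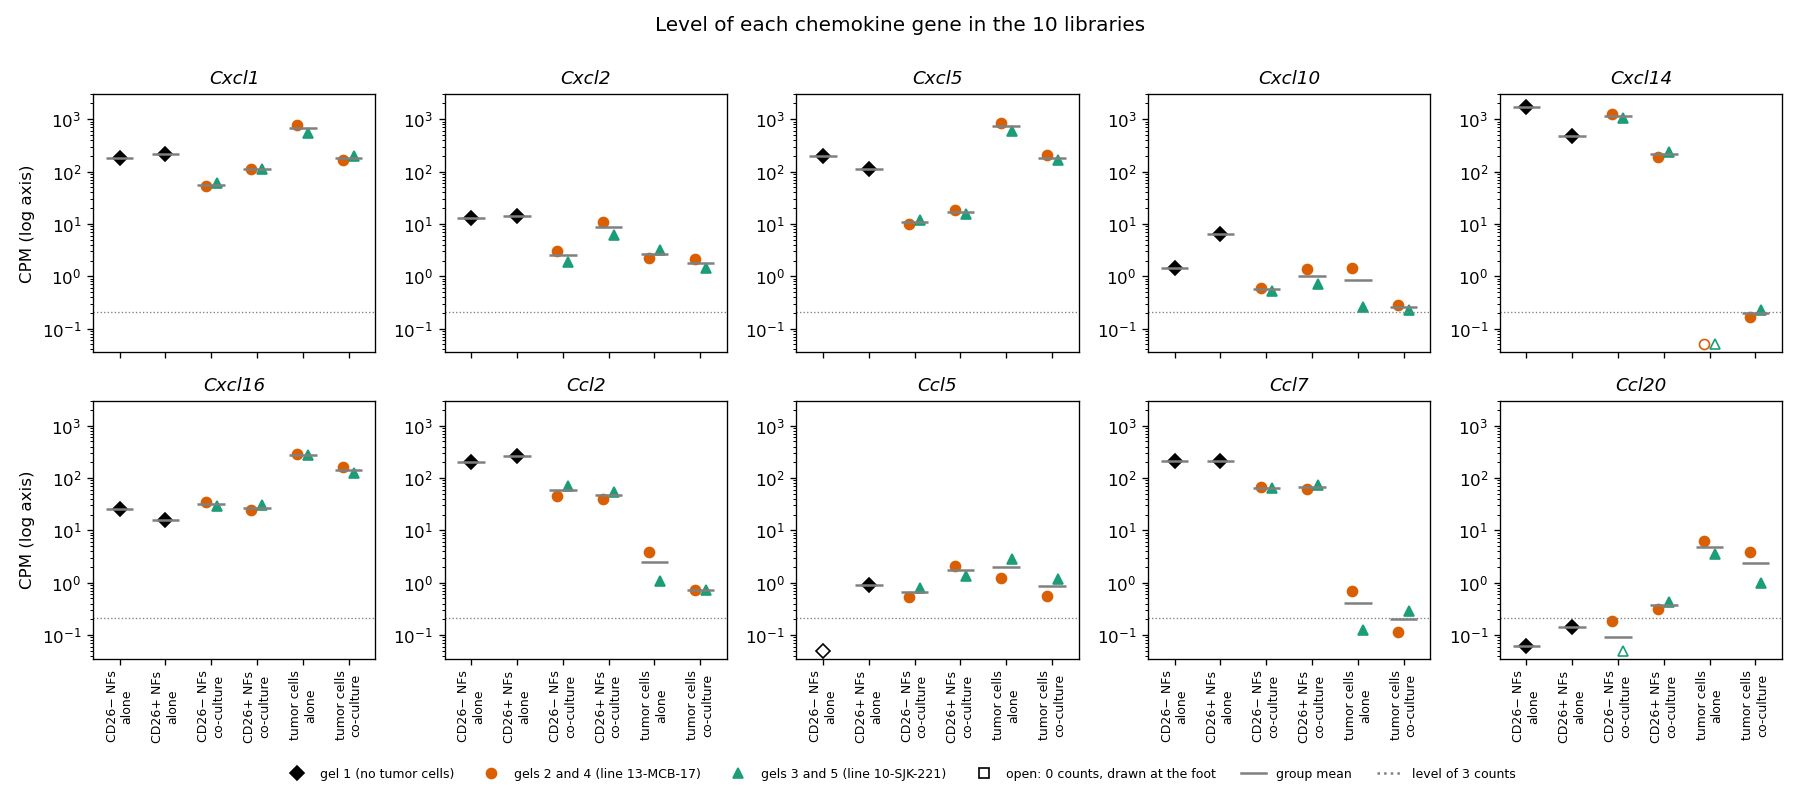
Level of each of the 10 chemokine genes in CPM (log axis) in the 6 groups, with 1 point per library, gray bars at group means and open points for libraries with 0 counts. Cxcl14, Ccl2 and Ccl7 sit high in NFs and near the level of 3 counts or within a few CPM of it in tumor cells, and Cxcl16 and Ccl20 are higher in every tumor library than in every NF library.

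The first comparison asked which chemokines came from which cell type. All 10 genes differed between tumor cells alone and NFs alone, 5 higher and 5 lower in tumor cells, against 55.5% of all 17048 genes tested (27.1% higher and 28.4% lower). In co-culture 8 of 10 differed, 4 in each direction, against 51.8% of all genes (24.2% higher and 27.7% lower). With backgrounds of this size, these counts say little about the chemokines, and their levels are described instead. Tests are edgeR quasi-likelihood tests adjusted over all genes tested, on TMM-scaled counts, and SE is the standard error of the log2 fold change. NFs alone had 1 library per subset, so the spread came from the groups with 2 libraries (4 residual degrees of freedom). NFs alone were assumed to vary like these. Line was not a term of this fit, so the spread of tumor cells includes the difference between lines.

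The monocyte attractants Ccl2 and Ccl7 were higher in NFs. Ccl7 was at 210.9 CPM in CD26− and 211.5 CPM in CD26+ NFs alone, and at 0.706 and 0.127 CPM in tumor cells alone. It differed by −9.02 on the log2 scale (SE 0.46, adjusted p = 1.53e-06) alone, and by −8.55 (SE 0.48, adjusted p = 2.99e-06) in co-culture. The sizes are loose, since tumor cells had 13 and 2 counts of Ccl7 alone and 2 and 5 in co-culture: alone the difference was −10.77 without gel 2 and −8.30 without gel 3, and in co-culture it was −9.21 without gel 5. At the median NF share, NF RNA would supply 62.0% and 31.9% of Ccl7 in co-cultured tumor cells. Ccl2 was at 204.7 and 268.1 CPM in NFs alone against 3.86 and 1.08 CPM in tumor cells alone (log2 fold change −6.66, SE 0.55, adjusted p = 2.11e-05), with −7.92 without gel 2 and −6.02 without gel 3. In co-culture Ccl2 was at 40.6 to 71.3 CPM in NFs and at 0.735 and 0.742 CPM in tumor cells (log2 fold change −6.35, SE 0.57, adjusted p = 3.76e-05). NF and tumor libraries did not overlap for either gene.

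Cxcl14, a chemokine made constitutively by many epithelia and fibroblasts, had 0 counts in both libraries of tumor cells alone. It reached 1733 CPM in CD26− and 470.7 CPM in CD26+ NFs alone, which is at least 5773-fold higher than the 3-count floor of tumor cells on average. In co-cultured tumor cells it had 3 and 4 counts (0.170 and 0.228 CPM). Fibroblast markers in these libraries corresponded to a median NF share of 0.109% and 0.130%, with 0 to 8.94% and 0.0396% to 9.92% by single markers. At the median, NF RNA would bring 0.771 and 0.851 CPM of Cxcl14.

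Tumor cells held more of the neutrophil attractants Cxcl1 and Cxcl5. Cxcl5 was at 850.7 and 608.1 CPM in tumor cells alone against 200.1 and 112.4 CPM in NFs alone (log2 fold change 2.16, SE 0.24, adjusted p = 0.000122). Cxcl1 was at 789.7 and 550.0 CPM against 180.8 and 217.7 CPM (log2 fold change 1.63, SE 0.22, adjusted p = 0.000384). In co-culture the difference was 3.55 for Cxcl5 (SE 0.20, adjusted p = 3.07e-06) and 0.99 for Cxcl1 (SE 0.18, adjusted p = 0.00229). Cxcl2, a ligand of the same receptor, went the other way, with 2.28 and 3.12 CPM in tumor cells alone against 13.0 and 14.2 CPM in NFs alone (log2 fold change −2.47, SE 0.39, adjusted p = 0.000844). Its co-culture levels overlapped between cell types, since CD26− NFs at 3.09 and 1.90 CPM lay beside tumor cells at 2.15 and 1.43 CPM. Over both subsets Cxcl2 was still lower in co-cultured tumor cells (log2 fold change −1.56, SE 0.36, adjusted p = 0.00682). In co-culture neither Cxcl1 nor Cxcl2 passed without gel 4 (both at adjusted p = 0.103) or without gel 5 (adjusted p = 0.137 and 0.0945).

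Cxcl16, a membrane-anchored ligand of Cxcr6, was at 285.0 and 274.5 CPM in tumor cells alone against 26.1 and 15.8 CPM in NFs alone. That difference was 3.65 on the log2 scale (SE 0.21, adjusted p = 3.05e-06), and it was 2.08 in co-culture (SE 0.16, adjusted p = 1.64e-05). Ccl20, the ligand of Ccr6, had 115 and 56 counts in tumor cells alone and 1 and 2 counts in NFs alone. Its mean of 4.91 CPM in tumor cells alone was at least 23.3-fold higher than the floor of NFs (adjusted p = 0.00245). Ccl20 remained higher in tumor cells in co-culture, at 3.79 and 0.970 CPM against at most 0.424 CPM (log2 fold change 3.46, SE 0.76, adjusted p = 0.00544), but not past the threshold without gel 4 (adjusted p = 0.0905).

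Cxcl10, an interferon-induced ligand of Cxcr3, and Ccl5, which attracts T cells and monocytes, were low throughout. Cxcl10 was at 1.43 CPM in CD26− and 6.53 CPM in CD26+ NFs alone and was lower in tumor cells alone (log2 fold change −1.90, SE 0.68, adjusted p = 0.0423), at 1.47 and 0.254 CPM. The cell types overlap, since CD26− NFs lay just below line 13-MCB-17, and the call was not made with DESeq2 (adjusted p = 0.0778). The difference was −3.71 without gel 2, and −1.15 without gel 3, where it did not pass (adjusted p = 0.114). In co-culture it was −1.74 (SE 0.76, adjusted p = 0.0849), and it passed when gel was a replicate block (adjusted p = 0.0286). Ccl5 was higher in tumor cells alone (adjusted p = 0.00506), at 1.25 and 2.80 CPM against 0 and 0.912 CPM in NFs, a ratio of means of 4.44, and a difference was not detectable in co-culture (log2 fold change −0.50, SE 0.52, adjusted p = 0.447).

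**Figure D2:**
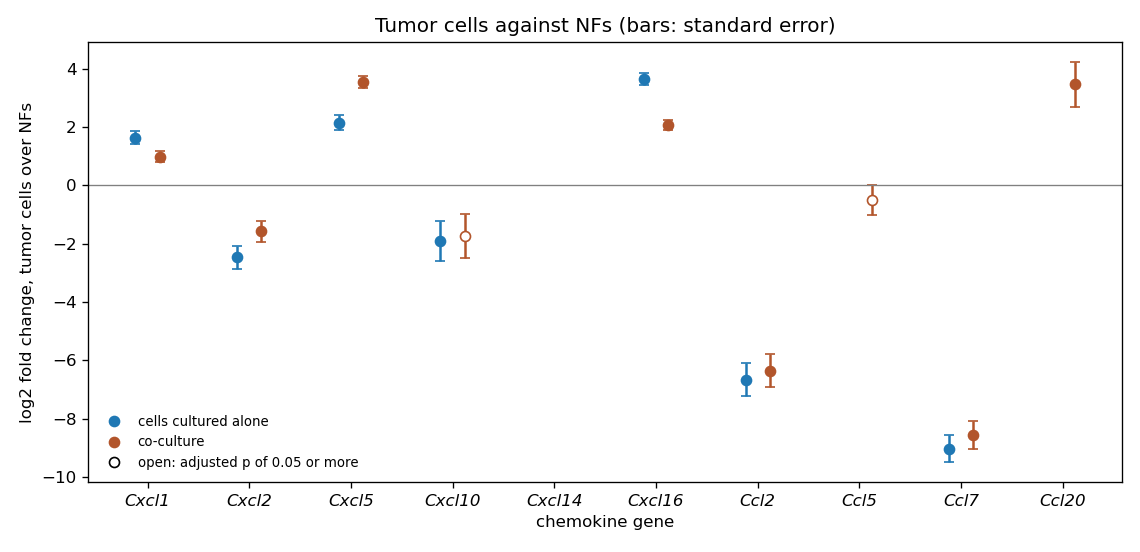
Log2 fold change of tumor cells over NFs for each gene (vertical axis), alone and in co-culture, with bars for the standard error and open points where the adjusted p was 0.05 or more. Cxcl14 in both cultures and Ccl5 and Ccl20 in cells alone are not drawn, because a group at or near 0 counts gives no fitted size; Ccl2 and Ccl7 lie lowest of the genes drawn, and Cxcl1, Cxcl5 and Cxcl16 lie above 0 in both cultures.

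The next comparison asked how NF chemokines differed in the presence of tumor cells. Of the 9 genes that passed the filter on low counts, 7 fell and 1 rose over both subsets, while 22.9% of all 15013 genes tested fell and 25.9% rose (48.8% in either direction). The median log2 fold change of the 9 was −1.51 against 0.02 over all genes. Such counts and medians do not test chemokines as a set, since the genes were chosen with earlier results of these data known. Ccl20 was left out by the filter. Less RNA per cell of a type and fewer such cells cannot be told apart in bulk samples, and every value here is relative to the library's total. The 8 fibroblast markers summed to 74850 and 69500 CPM in NFs alone and to 23320 to 41540 CPM in co-culture. The 8 leukocyte markers rose in sum, from 12.2 and 16.6 CPM to 34.2 to 68.5 CPM, although Lyz2 fell. Single markers need not follow such sums, and the part of either list in these changes was not tested. In tests within a subset, NFs alone had 1 library, so that the spread came only from the co-cultured pairs (2 residual degrees of freedom) and the library alone was assumed to vary like them.

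Cxcl5 fell in both subsets. It was at 200.1 CPM in CD26− NFs alone and at 9.88 and 12.1 CPM in co-culture, and at 112.4 CPM in CD26+ NFs alone and at 18.8 and 15.6 CPM in co-culture. Every co-cultured library was below both libraries of NFs alone. Cxcl5 fell by 4.11 on the log2 scale in CD26− NFs (SE 0.22, adjusted p = 1.87e-08) and by 2.67 in CD26+ NFs (SE 0.22, adjusted p = 8.75e-07). If the tumor share given above applied to this gene, tumor RNA would supply 40.5% and 28.1% of its level in co-cultured CD26− NFs and 34.1% and 57.0% in CD26+ NFs, in gels 4 and 5. With the share of the highest marker the amount would exceed the measured level in all 4 libraries, at 20.2 and 15.0 CPM in CD26− and 26.3 and 28.9 CPM in CD26+ NFs.

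Cxcl1 was at 180.8 CPM in CD26− NFs alone and at 52.8 and 60.1 CPM in co-culture (log2 fold change −1.61, SE 0.20, adjusted p = 3.89e-05). In CD26+ NFs it was at 217.7 CPM alone and at 114.3 and 111.9 CPM in co-culture (log2 fold change −0.91, SE 0.20, adjusted p = 0.00360). Cxcl2 fell in CD26− NFs, from 13.0 to 3.09 and 1.90 CPM (log2 fold change −2.33, SE 0.36, adjusted p = 0.000266). In CD26+ NFs it was at 14.2 CPM alone and at 11.1 and 6.22 CPM in co-culture, which did not pass (log2 fold change −0.67, SE 0.35, adjusted p = 0.150). Over both subsets the change of Cxcl2 was −1.51 (adjusted p = 0.00833) and did not pass without gel 5 (−1.15, adjusted p = 0.0661).

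Ccl2 and Ccl7 fell in both subsets. In co-cultured CD26− NFs Ccl2 stood at 45.2 and 71.3 CPM (log2 fold change −1.74, SE 0.27, adjusted p = 0.000289) and in co-cultured CD26+ NFs at 40.6 and 55.1 CPM (log2 fold change −2.45, SE 0.28, adjusted p = 1.66e-05). Ccl7 was at 62.8 to 75.0 CPM in the 4 co-cultured libraries, against 210.9 and 211.5 CPM alone. Its log2 fold change was −1.62 in CD26− NFs (SE 0.20, adjusted p = 4.07e-05) and −1.58 in CD26+ NFs (SE 0.20, adjusted p = 5.04e-05). Both neighbors were lower in each co-cultured library than in either library of NFs alone.

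Cxcl14 fell in CD26+ NFs, from 470.7 CPM to 189.6 and 237.7 CPM (log2 fold change −1.10, SE 0.22, adjusted p = 0.00204). In CD26− NFs it was at 1733 CPM alone and at 1231 and 1070 CPM in co-culture (log2 fold change −0.53, SE 0.23, adjusted p = 0.0938). Cxcl10 fell in CD26+ NFs, from 6.53 to 1.35 and 0.707 CPM (log2 fold change −2.61, SE 0.51, adjusted p = 0.00154). In CD26− NFs it was at 1.43 CPM alone and at 0.606 and 0.518 CPM in co-culture, which are 10 and 9 counts (log2 fold change −1.27, SE 0.61, adjusted p = 0.133).

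Over both subsets, Cxcl16 was the member that rose. It was at 15.8 CPM in CD26+ NFs alone and at 24.0 and 30.0 CPM in co-culture (log2 fold change 0.81, SE 0.24, adjusted p = 0.0205), and at 26.1 CPM in CD26− NFs alone and 34.6 and 29.1 CPM in co-culture (log2 fold change 0.35, SE 0.23, adjusted p = 0.273). The libraries of the cultures overlap over both subsets. The rise in CD26+ NFs did not pass without the CD26+ library of gel 5 (0.57, adjusted p = 0.0991), with DESeq2 (adjusted p = 0.0506) or without a filter on low counts (adjusted p = 0.0605), and the rise over both subsets (0.56, SE 0.17, adjusted p = 0.0225) did not pass without gel 5 (adjusted p = 0.0740). Tumor RNA at the share given above would supply 8.96% and 8.93% of Cxcl16 in co-cultured CD26− NFs and 20.7% and 22.6% in CD26+ NFs. With the highest marker it would supply 15.6 CPM in CD26− and 20.4 CPM in CD26+ NFs of gel 4, and its part in the rise was not tested.

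Ccl5 had 0 counts in CD26− NFs alone and 9 and 14 in co-culture. Its mean of 0.676 CPM there was at least 3.63-fold higher than the floor (adjusted p = 0.0161), and the call was lost without the CD26− library of gel 5 (adjusted p = 0.0677). In CD26+ NFs it was at 0.912 CPM alone and at 2.12 and 1.34 CPM in co-culture (log2 fold change 0.96, SE 0.73, adjusted p = 0.329). By subset, 6 of 9 genes changed in CD26− NFs (5 lower, against 14.1% of all 16231 genes lower and 30.8% in either direction) and 7 of 9 in CD26+ NFs (6 lower, against 15.2% lower and 34.2% in either direction). The subset responses share no library, but both rest on gel 1.

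**Figure D3:**
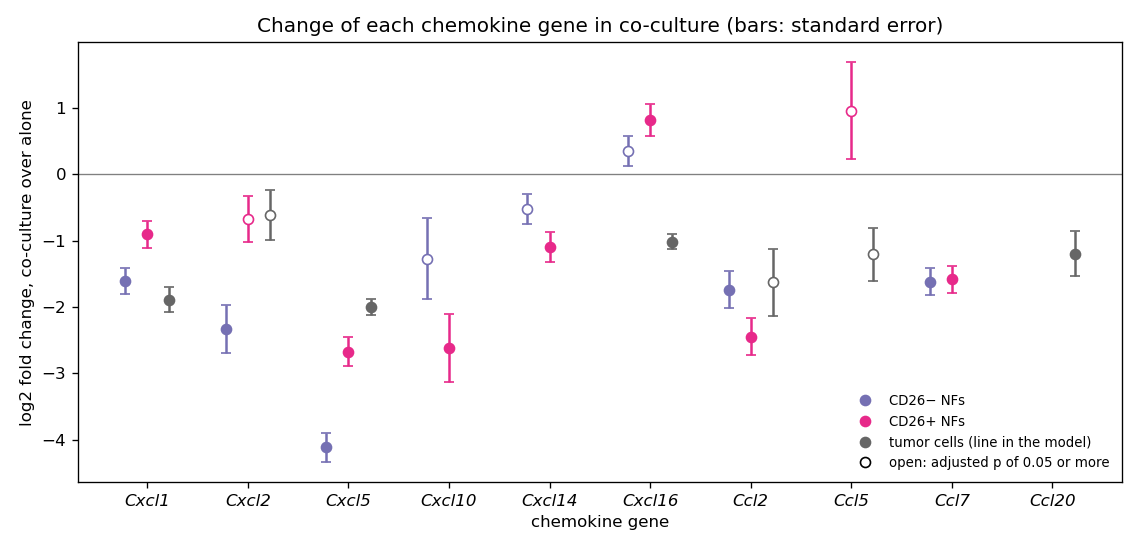
Log2 fold change of co-culture over culture alone for each gene in CD26− NFs, CD26+ NFs and tumor cells, with bars for the standard error and open points where the adjusted p was 0.05 or more. Cxcl1 and Cxcl5 are below 0 in all 3 cell populations and Cxcl16 is above 0 in NFs and below 0 in tumor cells; Ccl5 in CD26− NFs, which had 0 counts alone, and genes left out by the filter are not drawn.

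Whether the subsets differed in their response was tested as an interaction, in which the difference between subsets alone rests on gel 1 and has no spread of its own. None of the 9 genes passed, against 59 of 16231 genes (0.364%, with 0.216% higher and 0.148% lower). Cxcl5 had an interaction of 1.44 on the log2 scale (SE 0.32, adjusted p = 0.0903), which means that it differed less between cultures in CD26+ NFs. The value was 1.65 for Cxcl2 (SE 0.52, adjusted p = 0.320) and 0.70 for Cxcl1 (SE 0.29, adjusted p = 0.570). With gel as a replicate block Cxcl5 (1.45, adjusted p = 0.000518) and Cxcl2 (1.64, adjusted p = 0.00415) passed, but the spread in that fit came from gels 4 and 5 only (1 residual degree of freedom), so that these p-values hold none for gel 1. Cxcl5 also passed on library totals (adjusted p = 0.0390) and with DESeq2 (adjusted p = 0.0395).

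The subsets themselves were compared over the 3 gels that held them. Of 9 genes tested, only Cxcl14 passed, and it was lower in CD26+ NFs, whereas 3.6% of the 15013 genes were lower and 3.93% higher (7.53% in either direction). The median of the 9 was −0.06 against 0.00 over all genes tested. Cxcl14 was 3.68 times as high in CD26− as in CD26+ NFs in gel 1, 6.49 times in gel 4 and 4.50 times in gel 5 (log2 fold change −2.40, SE 0.18, adjusted p = 0.000269). No CD26+ library reached the lowest CD26− library, with 470.7 CPM as the highest of the former and 1070 CPM as the lowest of the latter.

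In co-culture Cxcl1 and Cxcl2 were higher in CD26+ NFs. Here 3 of 9 genes passed, 2 higher and 1 lower, against 3.48% of 16231 genes higher and 2.53% lower (6.01% in either direction). Cxcl1 was 2.17 times as high in CD26+ as in CD26− NFs in gel 4 and 1.86 times in gel 5 (log2 fold change 0.82, SE 0.17, adjusted p = 0.0118). In gel 1, with NFs alone, the ratio was 1.20. Cxcl2 was 3.60 times as high in gel 4 and 3.28 times in gel 5 (log2 fold change 1.63, SE 0.32, adjusted p = 0.00912), and 1.09 times in gel 1. Tumor RNA, whose share was larger in the CD26+ library of each gel, would supply 4.44% and 9.80% of Cxcl1 there and 6.01% and 6.99% in CD26− NFs. With the highest marker the amounts of Cxcl1 would be 20.8 and 35.6 CPM in CD26+ and 16.0 and 18.4 CPM in CD26− NFs. For Cxcl2 they would be at most 0.274 CPM. Other markers differed in the same contrast: in gels 4 and 5 the fibroblast markers summed to 23320 and 29340 CPM in CD26+ against 38000 and 41540 CPM in CD26− NFs, and the 4 endothelial markers to 24.4 and 14.9 CPM against 10.1 and 8.06 CPM. Single markers of a list need not follow its sum, and the part of either list in the differences was not tested.

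Cxcl14 was lower in co-cultured CD26+ NFs (log2 fold change −2.60, SE 0.20, adjusted p = 6.63e-06). These 3 calls depend on single libraries, and leaving 1 out leaves 1 library in its group. Without the CD26+ library of gel 4 or of gel 5 none of them passed, with Cxcl14 at −2.42 and −2.82. Few or no genes passed at all in these fits, so the loss is not particular to these 3. Over all fits with libraries left out Cxcl1 was at 0.69 to 0.97 and Cxcl2 at 1.18 to 1.97. Without the CD26− library of gel 5 Cxcl14 alone passed, and without that of gel 4 Cxcl1 did not (0.69, adjusted p = 0.212). Directions were the same in each of these fits.

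The remaining genes did not pass between the subsets. Ccl7 was 0.945 to 1.15 times as high in CD26+ as in CD26− NFs over the 3 gels, and Ccl2 was 1.31 times as high in gel 1 and 0.898 and 0.773 times in gels 4 and 5. Cxcl5 was 0.562 times as high in gel 1 and 1.90 and 1.29 times in gels 4 and 5. Cxcl16 ratios were 0.606, 0.694 and 1.03. Ccl5 was higher in CD26+ NFs in each gel, at 0.912 CPM against 0 in gel 1 and by 3.89 and 1.67 times in gels 4 and 5, on at most 33 counts a library (log2 fold change 1.70, SE 0.65, adjusted p = 0.145). Cxcl10 was higher in CD26+ NFs in each gel, by 4.57, 2.23 and 1.37 times, but at 9 to 93 counts a library (log2 fold change 1.29, SE 0.46, adjusted p = 0.119). Scaling moves such comparisons: on library totals the median of all genes shifted to 0.16 over 3 gels and to 0.18 in co-culture, and the split of higher and lower genes went from 590 and 540 to 1119 and 263, and from 565 and 410 to 1092 and 273. Relative to that shift the direction of Cxcl14 held.

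**Figure D4:**
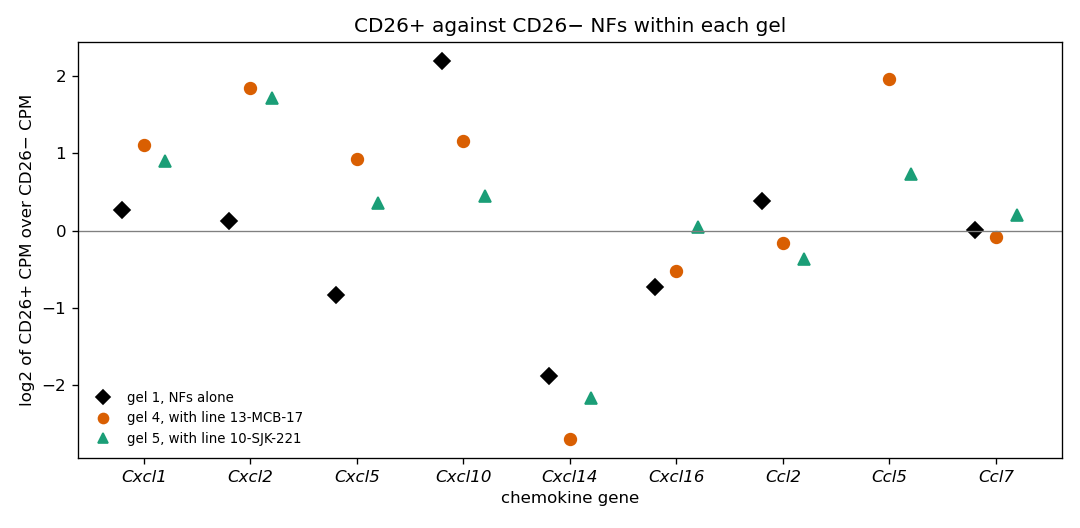
Log2 ratio of CD26+ to CD26− CPM within each gel for 9 chemokine genes; 1 point is 1 gel, and Ccl20 is left out because both subsets were near 3 counts, as is Ccl5 in gel 1 (0 counts in CD26− NFs). Cxcl14 is below 0 in all 3 gels, and Cxcl1 and Cxcl2 lie farther above 0 in gels 4 and 5 than in gel 1.

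In tumor cells the comparison of co-culture with culture alone paired each line with itself. Each line had 1 library per culture, which left 1 residual degree of freedom. The spread of this fit is only how far the responses of the lines differed. Its p-values, also those between the lines, therefore do not rest on replicate cultures of a line. Of 7 genes tested, 4 fell (Cxcl1, Cxcl5, Cxcl16 and Ccl20) and none rose, against 11.5% of 13197 genes lower and 10.8% higher (22.3% in either direction). The median of the 7 was −1.21 against 0.01 over all genes. Cxcl10, Cxcl14 and Ccl7 were left out by the filter. The 8 leukocyte markers fell in sum, from 303.3 CPM in gel 2 to 95.1 CPM in gel 4. In the other line their sum went from 102.6 CPM in gel 3 to 51.1 CPM in gel 5. Cd68 fell from a mean of 196.1 to 57.6 CPM, whereas some others rose, such as Csf1r from 4.52 to 12.3 CPM. The part of this list in the changes was not tested.

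Cxcl5 was at 850.7 CPM alone and 206.2 CPM in co-culture in line 13-MCB-17, and at 608.1 and 163.1 CPM in line 10-SJK-221. It fell by 2.00 on the log2 scale (SE 0.12, adjusted p = 3.87e-05), 4.13-fold and 3.73-fold in the lines. Cxcl1 was at 789.7 CPM alone and 163.5 CPM in co-culture in line 13-MCB-17, and at 550.0 and 200.7 CPM in line 10-SJK-221 (log2 fold change −1.89, SE 0.19, adjusted p = 0.000422). Neither gene's cultures overlapped.

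Cxcl16 went from 285.0 to 159.9 CPM in line 13-MCB-17 and from 274.5 to 124.0 CPM in line 10-SJK-221 (log2 fold change −1.02, SE 0.11, adjusted p = 0.000686). Leaving out a tumor library required a spread pooled over all groups, with which Cxcl16 passed on all libraries (adjusted p = 0.00197) but not without the library of gel 3 or gel 5 (adjusted p = 0.0585 and 0.0601). Ccl20 was at 6.25 CPM alone and 3.79 CPM in co-culture in line 13-MCB-17 and at 3.56 and 0.970 CPM in line 10-SJK-221 (log2 fold change −1.20, SE 0.34, adjusted p = 0.0357). With the pooled spread Ccl20 did not pass on all libraries (adjusted p = 0.125), and with libraries left out it was −1.87 to −0.76. With line left out of the model none of the 7 passed, and none of the 13197 genes did (2207 at an unadjusted p under 0.05; DESeq2 with line in the model called 1568).

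Ccl2 was at 3.86 CPM alone and 0.735 CPM in co-culture in line 13-MCB-17 and at 1.08 and 0.742 CPM in line 10-SJK-221, which did not pass (log2 fold change −1.63, SE 0.51, adjusted p = 0.0524). With the pooled spread Ccl2 was at −0.54 without the library of gel 2 (adjusted p = 0.953) or gel 4 (adjusted p = 0.956), and passed at −2.42 without that of gel 3 (adjusted p = 0.0158) or gel 5 (adjusted p = 0.0175). Ccl5 was at 1.25 and 0.566 CPM, and at 2.80 and 1.20 CPM (log2 fold change −1.21, SE 0.40, adjusted p = 0.0631). Cxcl2 was at 2.28 and 2.15 CPM, and at 3.12 and 1.43 CPM (log2 fold change −0.61, SE 0.37, adjusted p = 0.283).

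Whether tumor cells and NFs differed in their response to co-culture was tested after these values were seen. Of the 10 genes, 4 passed (Cxcl5, Cxcl14, Cxcl16 and Ccl5), 2 in each direction, against 8.15% of 17048 genes higher and 12% lower (20.2% in either direction). Cxcl16 had a difference in response of −1.58 on the log2 scale (SE 0.26, adjusted p = 0.00478), with lower levels in co-culture in both tumor lines and higher levels in each co-cultured NF library than in the same subset alone. None of the 4 passed without gel 4 or without gel 5.

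Between the lines, Cxcl5 (log2 fold change −0.49, SE 0.12, adjusted p = 0.0259) and Ccl20 (−1.35, SE 0.34, adjusted p = 0.0321) were lower in 10-SJK-221 than in 13-MCB-17, 2 of 7 genes against 8.54% of all genes lower and 14.5% in either direction. Neither passed with the spread pooled over all groups (adjusted p = 0.128 and 0.126), and Ccl20 was −1.99 to −0.88 with libraries left out.

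The other genes of the pathway were described by lists of 22 further ligands, 21 receptors and decoys and 19 inducing signals. In NFs 11 ligands were tested, of which 3 rose and 5 fell in co-culture, while 25.9% of all genes rose and 22.9% fell. One that rose was Cxcl3, named here after its values were seen, from 0.248 and 0 CPM alone to 0.633 to 2.05 CPM (adjusted p = 0.0208). Tumor RNA would supply 58.2% to 72.2% of that at the median share and more than was measured at the highest marker share, and Cxcl3 did not pass without gel 5 (adjusted p = 0.0752). Ccl9 went from 43.5 and 34.7 CPM alone to between 0.182 and 1.41 CPM (log2 fold change −6.15, adjusted p = 4.80e-06). Cxcl13, which attracts B cells, had 1.92 and 9.19 CPM in NFs alone and at most 0.064 CPM in co-culture, at least 26.2-fold lower. Ccl3, a ligand of Ccr1, had 0 counts in NFs alone. In co-culture its level was 2.25 and 2.47 CPM in CD26+ NFs against 0.121 and 0.115 CPM in CD26− NFs.

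Ccl8, another monocyte attractant, was at 58.1 CPM in CD26+ NFs alone and at 84.0 and 111.4 CPM in co-culture, against 38.4, 27.0 and 26.1 CPM in CD26− NFs. Over 3 gels it was higher in CD26+ NFs (log2 fold change 1.30, adjusted p = 0.0165), and so it was in co-culture (1.71, adjusted p = 0.000147). It did not pass over 3 gels without gel 5 (0.98), nor in co-culture without the CD26+ library of gel 4 (1.92) or of gel 5 (1.44). Few or no genes passed in these fits, which leave a single library in a group. Of 11 ligands tested, 2 were higher in CD26+ NFs and none lower over 3 gels (Ccl3 and Ccl8), against 3.93% and 3.6% of all genes. The endothelial sums, given above for co-culture, were 9.76 CPM in CD26+ and 4.35 CPM in CD26− NFs alone, and their part in these differences was not tested.

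In tumor cells 6 further ligands were tested, of which 3 fell and 2 rose in co-culture, while 11.5% of all genes fell and 10.8% rose. Cxcl3, another Cxcr2 ligand, went from 191.2 to 27.8 CPM in line 13-MCB-17 and from 116.6 to 21.8 CPM in line 10-SJK-221 (log2 fold change −2.63, adjusted p = 1.57e-05). Ppbp, also a Cxcr2 ligand, went from 13.1 to 1.92 CPM and from 30.3 to 8.96 CPM (log2 fold change −2.18, adjusted p = 0.000721). Ccl9 rose, from 0.815 to 3.96 CPM and from 4.71 to 13.6 CPM (log2 fold change 1.76, adjusted p = 0.00277), whereas it fell in NFs. With the pooled spread this rise did not pass without the library of gel 2 (1.52, adjusted p = 0.0727) or gel 4 (1.52, adjusted p = 0.0788).

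Receptors were low. Only 5 of 21 passed the filter in the NF fit over both subsets, 6 in the NF fit of 4 groups and 4 in tumor cells. Ccr1 rose in co-cultured NFs, from 0.745 and 0 CPM alone to 5.51 and 5.06 CPM in CD26− and 12.1 and 14.3 CPM in CD26+ NFs (log2 fold change 4.39, adjusted p = 0.000931). The leukocyte markers summed to 12.2 and 16.6 CPM in NFs cultured alone and to 34.2 to 68.5 CPM in co-culture, with Adgre1 at 0 in all 4 of the latter. Cd68 made up most of the higher sum, at 3.48 and 6.53 CPM alone and 19.6 to 53.5 CPM in co-culture, and tumor cells held at least 34.8 CPM of it. Csf1r was at 1.86 and 2.81 CPM alone and 7.42 to 13.5 CPM in co-culture, with 11.6 and 12.9 CPM in co-cultured tumor cells, and Itgam at 0.124 and 0 CPM alone and 0.849 to 1.61 CPM in co-culture. Lyz2 went the other way, from 6.02 and 4.07 CPM alone to between 0.173 and 0.964 CPM. The summed endothelial markers, given above, were higher in each co-cultured library than in the same subset alone, but Tek, 1 of the 4, was lower, at 3.23 and 4.84 CPM alone against 0.0576 to 1.98 CPM. The part of either list in the change of Ccr1 was not tested. Cxcr2 was at 0.598 and 1.59 CPM in tumor cells alone and at 0 in NFs alone.

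Of 18 inducing signals tested in NFs, 4 rose and 9 fell in co-culture, against 25.9% and 22.9% of all genes. Of 18 in tumor cells 1 rose and 4 fell, against 10.8% and 11.5%. Il1a, which encodes interleukin 1 alpha, was at 936.4 and 644.8 CPM in tumor cells alone and at 373.5 and 400.7 CPM in co-culture (log2 fold change −1.03, adjusted p = 0.00328), which with the pooled spread did not pass without the library of gel 2 (adjusted p = 0.217) or gel 4 (adjusted p = 0.229). NFs alone had 0 counts of Il1a, and the co-cultured NFs had 17.3 to 21.6 CPM, of which the tumor share given above would supply 33.5% and 48.4% in CD26− NFs and 59.0% and 110.0% in CD26+ NFs. Il1r1, its receptor, was at 1040 and 635.5 CPM in NFs alone, at 151.5 to 210.3 CPM in co-cultured NFs (log2 fold change −2.17, adjusted p = 1.94e-06) and at 4.01 to 15.2 CPM in tumor cells.

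Tnf was at 0.124 and 0.351 CPM in NFs alone and reached 3.34 to 8.92 CPM when these were co-cultured (log2 fold change 4.57, adjusted p = 0.000171), of which tumor RNA would supply 0.575% to 6.20%. In tumor cells it went from 12.6 to 6.67 CPM and from 12.2 to 2.45 CPM (log2 fold change −1.56, adjusted p = 0.00842), a call not made with the pooled spread without the library of gel 3 (adjusted p = 0.278) or gel 5 (adjusted p = 0.259).

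**Figure D5:**
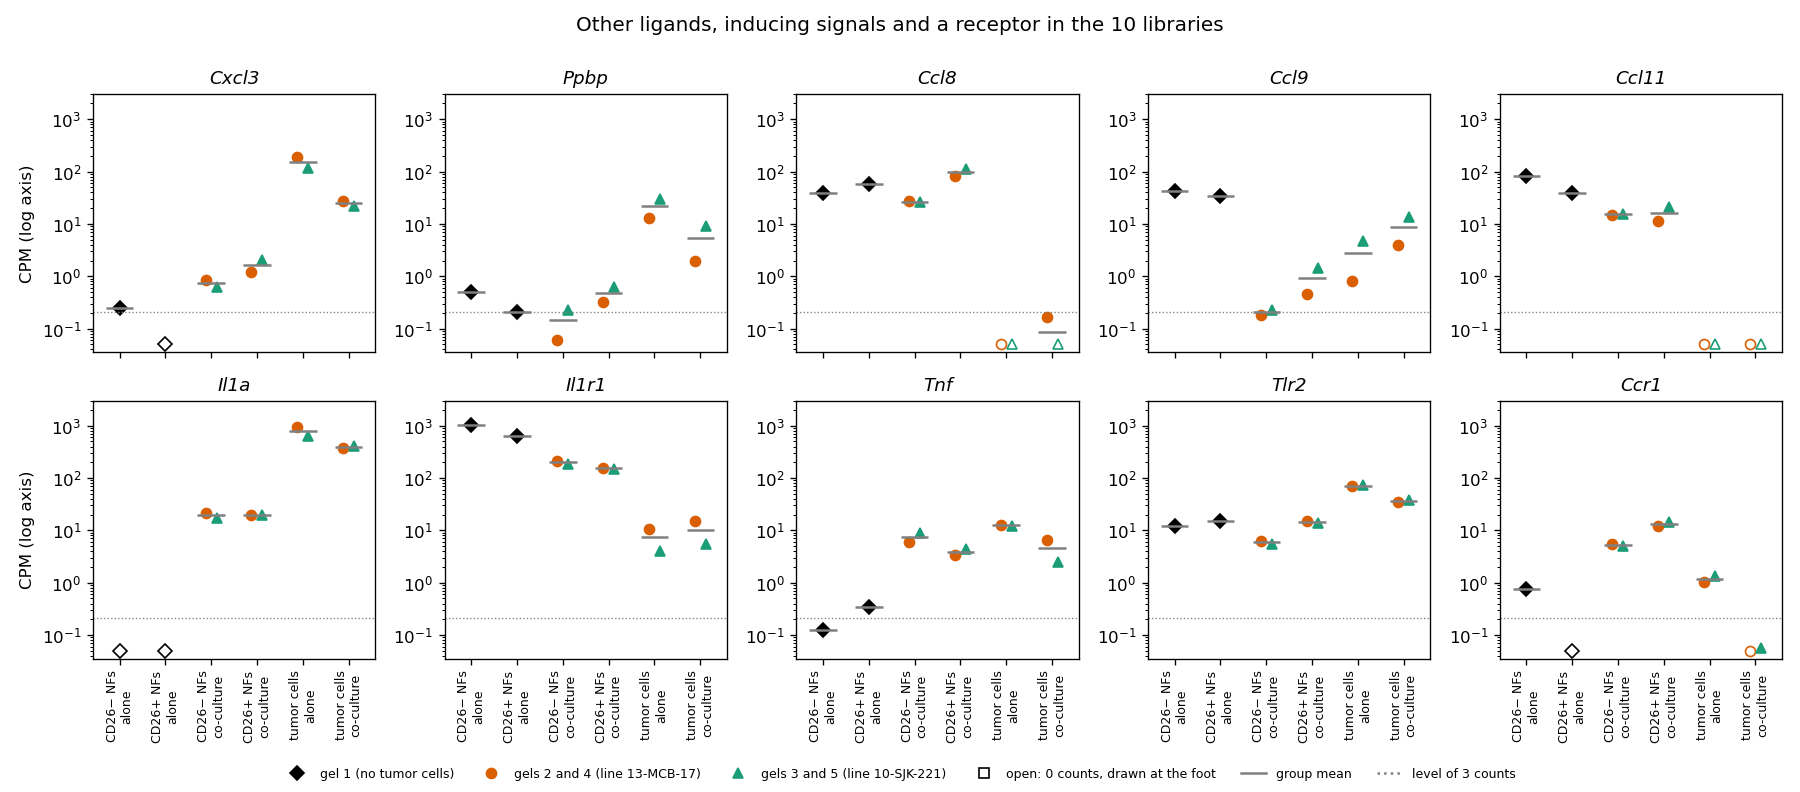
Level of 5 other ligands, 4 inducing signals and the receptor Ccr1 in CPM (log axis), drawn as in the plot of the 10 chemokine genes. Il1a is highest in tumor cells and Il1r1 in NFs alone, Ccl8 is higher in CD26+ than in CD26− NFs in each gel, and Cxcl3 and Ppbp are lower in co-cultured tumor cells than in tumor cells alone.

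As a description, the genes whose levels over the 10 libraries were most like those of a member were sought among 10937 genes, by Pearson's r of log2(scaled CPM + 0.5). Cxcl14 was most like Stard8 (r = 0.998), Ccl7 like Podxl2 (r = 0.997), Ccl2 like Ndnf (r = 0.993), Cxcl16 like Ube2d3 (r = 0.992) and Cxcl5 like Hp1bp3 (r = 0.991). The closest gene was Ifi203 for Cxcl1 (r = 0.961), Ufc1 for Cxcl2 (r = 0.957), Slc33a1 for Cxcl10 (r = 0.959), Reep4 for Ccl20 (r = 0.980) and Wars for Ccl5 (r = 0.913). The points share cell types, gels and sorts, so these values describe the 10 libraries only.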

How the data were processed

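Total RNA from sorted cells was made into stranded mRNA libraries. The authors deposited whole read counts for each gene and library, not normalized, as 1 table. The submitters' processing notes name HISAT2 2.2.1 and GRCm38, and the counting program and its use of strand were not given in the sources used here. Of the 55486 gene IDs, 99.38% were in GENCODE M21, of which 99.35% had the same coordinates. The 1 row lacking a gene ID had 0 counts. A further allele of the tumor cells is not reported here. The 10 genes and all lists were chosen with earlier results of these data known.

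Tests were quasi-likelihood F tests of edgeR 4.0.16 (R 4.3.3) after TMM scaling and filterByExpr, adjusted by Benjamini-Hochberg over all genes tested, with a threshold of 0.05. The SE was the absolute log2 fold change divided by the square root of F. NF comparisons over 3 gels or over both subsets used the 6 NF libraries with subset and culture as terms, and those within a culture or subset used 4 groups of them. The tumor model had terms for line and culture, and cell types were compared in 6 groups of all 10 libraries. Folds against a group at or under 3 counts in every library are lower bounds against that floor, which covers counting error only. From the lists, at most 4 genes per list and comparison could be named, those past the threshold with the largest absolute log2 fold change and at least 1 CPM in some library. Cxcr2 was named for its role. Most similar genes needed at least 10 CPM in some library.

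Same-numbered libraries came from the same gel per the labels, and their gel 4 minus gel 5 deviations correlated at 0.227 (CD26− with CD26+ NFs), 0.169 (CD26− NFs with tumor cells) and 0.092 (CD26+ NFs with tumor cells). P-values measure the spread left in each fit, which is not the spread between gels alone. NF fits counted both subsets of a gel as separate libraries unless gel was a block. Only gel 1 held NFs alone, so no spread between gels was measured for that culture. In the tumor fit the spread is the difference in response between the lines, and gels 4 and 5 also differ in line. Alternatives were DESeq2 1.42.0, RLE scaling, library totals, other filters, a log2 fold criterion of 2, gel as a block, and left-out libraries. The test script was tested on simulated data. Sequences came from RefSeq, and motifs were searched on both strands.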

Additional observations from a re-analysis of the deposited data

Results flagged for a closer look

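The response of tumor cells to co-culture was set against the mean response of both NF subsets in the 6-group fit, a test chosen after the values were seen. It passed for 4 of the 10 genes, against 20.2% of 17048 genes. Cxcl16 had a difference of −1.58 on the log2 scale (SE 0.26, adjusted p = 0.00478): it was lower in co-culture in both tumor lines and higher in all 4 co-cultured NF libraries than in the library of the same subset alone. Cxcl5 had a difference of 1.39 (SE 0.31, adjusted p = 0.0159), being lower in co-culture in both cell types and more so in NFs. The fitted differences of Cxcl14 (5.47, adjusted p = 0.0101) and Ccl5 (−5.00, adjusted p = 0.0199) are no sizes, because Cxcl14 went from 0 counts to 3 and 4 in tumor cells and Ccl5 started at 0 counts in CD26− NFs. Without gel 4 or gel 5 no gene passed (3262 and 3468 at an unadjusted p under 0.05), so none of these 4 did. DESeq2 was among the alternatives of this fit and left all 4 past the threshold. No group held the 4 samples needed to look for a library far from the rest.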

How the results depend on the processing

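Of 1030 values recomputed for single chemokine genes, 914 kept direction and side of the threshold, 81 fell short of it, 21 newly passed it and 14 changed sign without passing before or after. On library totals these were Cxcl5 (0.097) and Ccl7 (0.046) over 3 gels and Ccl7 in co-culture (0.067). With libraries left out, log2 fold changes were −0.45 to 0.47 for Cxcl5 over 3 gels, −0.29 to 0.044 for Ccl7 between subsets in co-culture and −0.17 to 0.16 in the interaction, −0.60 to 0.26 for Cxcl1 and −0.62 to 0.37 for Cxcl2 between lines, and for the difference in response −0.59 to 1.97 (Cxcl10), −0.33 to 1.57 (Ccl2) and −0.24 to 2.23 (Ccl7). Numbers that follow are chemokine genes called. Over 3 gels (1) there were 2 on library totals, 3 with DESeq2 and 1 to 3 with a gel left out. For co-cultured NFs against NFs alone (8) there were 6 to 8 with a gel left out, and with a log2 fold above 2 required 3, as in each subset alone (CD26− 6 and CD26+ 7, 5 to 6 and 6 to 7 with libraries left out). For subsets in co-culture (3) there were 0 to 3 with libraries left out and 1 with the fold criterion. For the interaction (0, with 1265 genes at an unadjusted p under 0.05) there were 1 on library totals, 1 with DESeq2, 2 with gel as a replicate block and 0 without single libraries. For tumor cells by culture (4) there were 0 without line in the model, 0 with the fold criterion, 3 with spread pooled over the 10 libraries (Cxcl1, Cxcl5 and Cxcl16) and, with that spread, 3 without any library (Ccl2 in place of Cxcl16 without gel 3 or 5). Between lines (2) there were 1 with DESeq2 and 0 with the fold criterion or with spread pooled over the 10 libraries, whether all were used (1065 genes called in all) or 1 was left out (401 to 526). Between cell types there were 9 to 10 of 10 alone, 5 to 9 in co-culture (8), and for the difference in response (4) 0 to 5 with gels left out and 2 with the fold criterion. The cause was not tested, beyond fewer libraries or a stricter criterion. Where a library was left out and its arm kept 1 sample, the spread was taken from the other groups, as for NFs alone in every test within a subset. Fits leaving out single co-cultured NF libraries were added after seeing the data, since the 4 groups have no residual degrees of freedom without gel 4 or 5.

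Counts over all genes moved by over 1.5 times as follows. Over 3 gels 1130 became 17 without gel 5 (1669 at an unadjusted p under 0.05) and 192 with the fold criterion, which also gave 2047 of 7325 by culture, 223 of 975 in co-culture, 1857 of 4996 and 2161 of 5556 by subset, 418 of 2942 and 278 of 1910 in tumor cells, 4899 of 9458 and 4000 of 8839 between cell types and 1629 of 3439 for their response. Subsets in co-culture gave 2407 with gel as a replicate block, 603 without a filter and 0 to 451 without single libraries (0 without the CD26+ library of gel 4, with 3287 at an unadjusted p under 0.05). Co-culture gave 2950 in CD26− NFs and 3222 in CD26+ NFs without their library of gel 4. The interaction (59) gave 395 with the block, 123 on library totals, 94 with DESeq2, 38 with a 1 CPM filter, 18 without a filter and 0 to 30 without single libraries. Tumor cells by culture gave 0 without line (2207 at an unadjusted p under 0.05), 1568 with DESeq2, 1817 with pooled spread and, with that spread, 406 to 1014 without a library. The lines gave 939 with DESeq2, 2917 without a filter and 1065 with pooled spread. Cell types in co-culture gave 3018 without gel 4 and 2614 without gel 5. On library totals the split of higher and lower genes also went from 783 and 1127 to 1343 and 1052 between lines and from 4124 and 4715 to 5235 and 3997 between cell types in co-culture. The block changed no other chemokine call than those given. Depth limits Ccl5, Ccl20 and Cxcl10, at most 115 counts a library.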
